A study of Mus musculus with 4 samples.

Results

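Cytokine receptor chains are the subunits through which blood cells read interleukins, interferons and colony-stimulating factors. The 36 chains described here, taken by gene symbol from a list of 7 receptor families, were followed in iSox7 bone marrow cells that expressed the transcription factor SOX7 at high or low level. Of the 36, 33 had at least 1 probe set bright enough to be used, among 18763 genes tested in all. The platform was the Affymetrix mouse exon array, of which 4 were hybridized, and which carry several probe sets along each gene. The value of a gene is the mean log2 signal of its singly named probe sets whose second-highest value over the arrays reached 5.04, called the filter value here, and chains with none count as dim.

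The groups were SOX7::GFP high cells (2 arrays) and SOX7::GFP low cells (2 arrays). Both groups share the iSox7 transgene, a doxycycline-inducible construct that makes SOX7 together with GFP, and both came from bone marrow of transgenic mice carried through 10 to 12 passages on irradiated OP9, a mouse bone marrow stromal line. Kit ligand, IL-7 and FLT3 ligand were present in the medium of both. The cells were separated by sorting on SOX7::GFP and cKIT, so genes that follow cKIT or GFP were part of how the groups were made. The labels also name a cell line (iSOX7, derivative Ainv18), and give neither sex, age nor number of mice. The text of the series describes cultures that did or did not receive doxycycline. Each array is labelled by SOX7 level, and the arrays were grouped on that label. The study describes SOX7::GFP low and high cells as subpopulations of the GFP-expressing cells in its doxycycline-induced cultures. By that description neither group is a culture without doxycycline. The study calls the duplicates biological, but whether they came from separate mice, cultures or sorts is not given in the sources used here, and p-values measure the spread among these 4 arrays.

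Most of these receptors have no enzyme of their own. Ligand binding brings together chains that carry Janus kinases, which phosphorylate STAT transcription factors, and STATs in turn switch on target genes, among them inhibitors such as *Cish* and the *Socs* genes that damp the receptor. Chains are shared between receptors: the common gamma chain serves IL-2, IL-4, IL-7, IL-9, IL-15 and IL-21, the common beta chain serves IL-3, IL-5 and GM-CSF, and gp130 serves IL-6, IL-11, LIF and oncostatin M. Interferons and IL-10 relatives bind class II receptors, and the IL-17 receptors signal through an adaptor pathway outside Janus kinases and STATs. In bone marrow, the mix of chains on a cell sets which growth factors it can read.

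*Sox7* itself, which checks the labels, lay at 9.52 and 9.63 on the log2 scale in SOX7::GFP high cells, against 9.07 and 8.90 in SOX7::GFP low cells (log2 fold change 0.59, SE 0.15, adjusted p = 0.0859 from limma). The direction followed the label, but the difference did not pass the test. The pan-leukocyte gene *Ptprc* (CD45) was at 9.22 and 8.97 in SOX7::GFP high cells, against 8.65 and 8.89 in SOX7::GFP low cells. Across genes, arrays of 1 group correlated at 0.961 (SOX7::GFP high) and 0.958 (SOX7::GFP low), and arrays of different groups at 0.859 to 0.865. Of 10 measured reference genes none was called. Precision is limited by there being 2 arrays in each group. In sorted bulk cells, fewer cells of a type and less RNA per cell cannot be told apart.

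A gene was called when its Benjamini-Hochberg adjusted p over all genes was under 0.05 (limma) and the change was at least 2-fold. By that rule 1 of the 33 measured chains was higher and 5 were lower in SOX7::GFP high cells, and 27 did not pass. That is 18.2% of the chains called, against 6.85% of all genes tested (3.61% higher and 3.24% lower). The chains were chosen with earlier results of these data known, so this share is a description and no test. *Il12rb2*, the signalling chain of the IL-12 receptor, was the chain that rose. *Il2ra* (CD25, the IL-2 receptor alpha chain), *Ifnar1* (type I interferon receptor), *Ifngr2* (interferon gamma receptor), *Il10ra* (IL-10 receptor) and *Il17ra* (the chain shared by IL-17 receptors) fell. The median change of the 33 chains was -0.09, against 0.05 over all genes, with 16 chains above and 17 below zero.

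The 250 bases before the RefSeq start sites of *Il12rb2*, the chain that rose, and of *Il2ra*, *Ifnar1* and *Ifngr2*, chains that fell, are printed from RefSeq (GRCm38.p6). Those of *Ifnar2*, the receptor partner of *Ifnar1* that was not called, are printed too. All read 5′ to 3′ on the strand of the gene. Capitals mark matches to the SOX cores ACAAAG and ACAATG, to the STAT-type element TTCNNNGAA and to an interferon response element (GAAA, any 2 bases, GAAA), each searched on both strands.
*Il12rb2*, chr6:67376189-67376438, minus strand: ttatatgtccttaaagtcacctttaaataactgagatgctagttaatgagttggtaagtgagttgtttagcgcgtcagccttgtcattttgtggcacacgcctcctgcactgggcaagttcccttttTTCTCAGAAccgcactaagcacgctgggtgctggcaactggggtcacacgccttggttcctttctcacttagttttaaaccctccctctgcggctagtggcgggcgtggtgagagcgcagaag
*Il2ra*, chr2:11642542-11642791, plus strand: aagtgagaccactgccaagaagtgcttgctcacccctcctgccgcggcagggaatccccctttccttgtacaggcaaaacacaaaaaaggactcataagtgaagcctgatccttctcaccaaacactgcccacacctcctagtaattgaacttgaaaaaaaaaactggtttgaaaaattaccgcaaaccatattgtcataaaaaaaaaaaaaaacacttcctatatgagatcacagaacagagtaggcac
*Ifnar1*, chr16:91484965-91485214, plus strand: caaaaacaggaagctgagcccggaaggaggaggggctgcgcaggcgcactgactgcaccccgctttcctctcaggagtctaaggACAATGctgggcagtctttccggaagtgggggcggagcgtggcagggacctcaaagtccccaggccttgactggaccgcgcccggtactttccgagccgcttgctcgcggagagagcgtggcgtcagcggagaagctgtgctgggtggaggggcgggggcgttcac
*Ifnar2*, chr16:91372533-91372782, plus strand: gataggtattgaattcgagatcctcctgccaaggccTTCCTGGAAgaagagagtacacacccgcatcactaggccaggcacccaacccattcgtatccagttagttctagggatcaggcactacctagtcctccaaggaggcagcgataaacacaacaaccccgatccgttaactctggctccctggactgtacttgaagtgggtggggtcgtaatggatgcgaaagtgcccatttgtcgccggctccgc
*Ifngr2*, chr16:91546809-91547058, plus strand: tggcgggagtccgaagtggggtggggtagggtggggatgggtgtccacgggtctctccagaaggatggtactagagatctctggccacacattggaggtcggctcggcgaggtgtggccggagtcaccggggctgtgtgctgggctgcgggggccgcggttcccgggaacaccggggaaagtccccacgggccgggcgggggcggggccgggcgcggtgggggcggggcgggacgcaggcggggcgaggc
*Il12rb2* holds a TTCNNNGAA match at -123 from the start site, *Ifnar2* has such a match at -214, and *Ifnar1* holds ACAATG at -166. None of the 4 motifs was found in the windows of *Il2ra* and *Ifngr2*. Windows were at hand for 29 of the 36 chains (41 windows, as some genes have several start sites), and no window held more than 1 motif. Chains without a window included *Il10ra* and *Il17ra*, which fell, and *Il12rb1*, so these could not be searched. Over all 41 windows, ACAAAG was in 3 (7.32%, against 16.5% of 32851 windows of all genes), ACAATG in 3 (7.32% against 10.7%), TTCNNNGAA in 4 (9.76% against 7.02%) and the interferon response element in 0 (0% against 2.98%). A match of letters is a description and shows no binding.

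**Figure D1:**
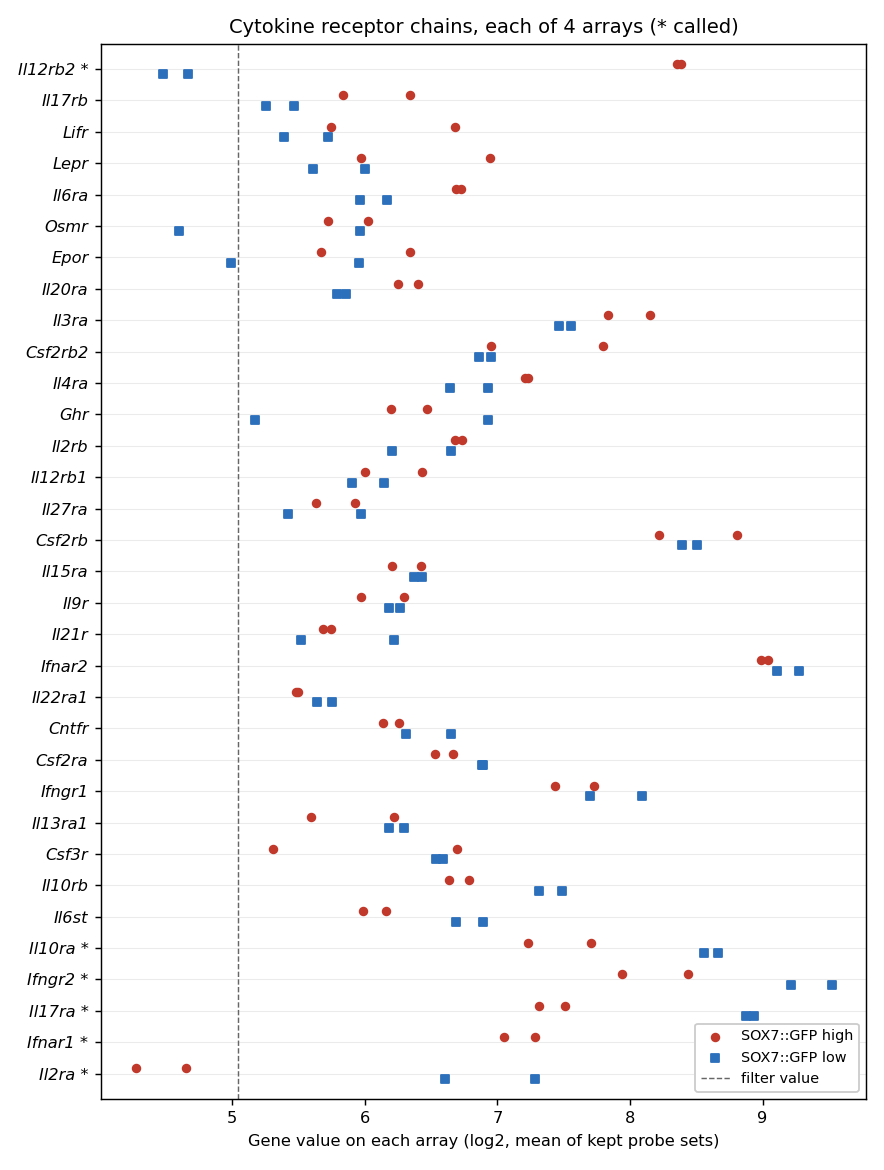
Level of the 33 measured chains on each of the 4 arrays (x axis, log2, mean of kept probe sets), ordered by log2 fold change, with SOX7::GFP high arrays as red circles, SOX7::GFP low arrays as blue squares and the filter value of 5.04 as a dashed line. The largest gap is that of *Il12rb2* (8.39 and 8.35 in SOX7::GFP high cells, against 4.67 and 4.48 in SOX7::GFP low cells), and the 5 called chains at the bottom have both red circles left of both blue squares.

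In the IL-12 family, *Il12rb2* lay at 8.39 and 8.35 in SOX7::GFP high cells, against 4.67 and 4.48 in SOX7::GFP low cells. Both SOX7::GFP high arrays were far above both SOX7::GFP low arrays, and the replicates of a group differed little. The log2 fold change was 3.80 (SE 0.15, adjusted p = 0.00353 from limma). SOX7::GFP low arrays averaged 4.57, less than the filter value of 5.04, so background limits the size. Against that value the rise was 10.0-fold. This is no strict lower limit, as 6 of its probe sets had a SOX7::GFP low mean at or above the filter value. All 21 of its probe sets had a change above zero (0.50 to 5.71, median 4.08) and 17 were called. The call held without any of the 4 arrays in turn (3.70 to 3.89, adjusted p from 0.0192 to 0.0377).

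*Il12rb1*, the ligand-binding partner of *Il12rb2* that is also used by IL-23, showed no such change. It changed by 0.19 (95% interval -0.35 to 0.73, adjusted p = 0.653 from limma). *Il27ra*, the IL-27 receptor chain, changed by 0.08 (95% interval -0.54 to 0.71, adjusted p = 0.877 from limma). Groups overlapped for both. *Il23r*, which in the RefSeq gene order is the neighbour of *Il12rb2* on chromosome 6, had 15 probe sets and none that passed the filter. Its unfiltered mean was 3.40 and 3.65 in SOX7::GFP high cells, against 3.11 and 3.14 in SOX7::GFP low cells, all under the filter value, and no test was made. *Serbp1*, on the other side of *Il12rb2*, changed by 0.40 (adjusted p = 0.183 from limma).

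The interferon and IL-10 receptors of class II held 3 of the 5 falls. Of 8 chains measured 3 were lower (37.5%, against 3.24% of all genes) and none was higher. A change below zero was found for 7 of them (87.5%, against 44.5% of all genes), with a median of -0.50, against 0.05 over all genes. *Ifnar1*, the type I interferon chain that carries the kinase TYK2, lay at 7.28 and 7.05 in SOX7::GFP high cells, against 8.87 and 8.66 in SOX7::GFP low cells. The groups were well apart, with a log2 fold change of -1.60 (SE 0.17, adjusted p = 0.0108 from limma), and all its 22 probe sets, kept or not, had a change below zero, 14 of them called. *Ifngr2*, the JAK2-binding chain of the interferon gamma receptor, lay at 8.44 and 7.94 in SOX7::GFP high cells, against 9.52 and 9.21 in SOX7::GFP low cells. Its log2 fold change of -1.18 (SE 0.23, adjusted p = 0.0491 from limma) was the closest of the 6 calls to the threshold. *Il10ra*, the chain that binds IL-10, lay at 7.71 and 7.23 in SOX7::GFP high cells, against 8.67 and 8.56 in SOX7::GFP low cells. The groups did not overlap (log2 fold change -1.14, SE 0.21, adjusted p = 0.0398 from limma). All 10 *Ifngr2* probe sets before the filter and all 11 of *Il10ra* had changes below zero, from -1.74 to -0.20 and from -1.33 to -0.87, but only 1 of *Ifngr2* and none of *Il10ra* was called.

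These calls rest on all 4 arrays. *Ifnar1* kept its call only without SOX7::GFP low replicate 2 (-1.71, adjusted p = 0.0417), and had adjusted p of 0.0599 and 0.0725 without SOX7::GFP high replicates 1 and 2 and 0.0505 without SOX7::GFP low replicate 1, all from limma. *Ifngr2* was not called without any array (-1.43 and -0.93 without SOX7::GFP high replicates 1 and 2, -1.02 and -1.33 without SOX7::GFP low replicates 1 and 2), nor after centring on reference genes (-1.17, adjusted p = 0.0542 from limma) or with the median of probe sets (-1.08, adjusted p = 0.0774 from limma). *Il10ra* was likewise not called without any array (-1.38 and -0.90 without SOX7::GFP high replicates 1 and 2, -1.09 and -1.20 without SOX7::GFP low replicates 1 and 2) or with the median (-1.19, adjusted p = 0.0745 from limma).

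Each of these 3 chains works with a partner that was measured and not called. *Ifnar2*, the ligand-binding partner of *Ifnar1*, lay at 9.04 and 8.99 in SOX7::GFP high cells, against 9.27 and 9.11 in SOX7::GFP low cells (-0.18, 95% interval -0.55 to 0.19, adjusted p = 0.523 from limma). Its interval and that of *Ifnar1* (-2.03 to -1.17) do not overlap. *Ifngr1*, the ligand-binding partner of *Ifngr2*, changed by -0.31 (95% interval -0.85 to 0.23, adjusted p = 0.448 from limma), and its interval overlaps that of *Ifngr2* (-1.78 to -0.58). *Il10rb*, shared by receptors of IL-10, IL-22 and interferon lambda, lay at 6.78 and 6.63 in SOX7::GFP high cells, against 7.48 and 7.31 in SOX7::GFP low cells. Its groups did not overlap, but the change of -0.69 (adjusted p = 0.0639 from limma) did not pass. The difference in change between partners was not tested.

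The 13 *Ifnar2* probe sets ran from -1.09 to 1.05, 10 of them below zero and none called. Those of *Ifnar1* ran from -2.25 to -0.38. *Ifnar2* in the mouse encodes a membrane and a soluble form, and which form a probe set reads was not determined here. *Il20ra*, a chain of the IL-20 receptor, changed by 0.50 (adjusted p = 0.115 from limma), the only class II chain above zero, with 3 of 11 probe sets kept. *Il22ra1*, a chain of the IL-22 receptor, changed by -0.21 (adjusted p = 0.446 from limma), also with 3 probe sets kept, of 14.

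In the RefSeq gene order *Ifnar2*, *Il10rb*, *Ifnar1* and *Ifngr2* follow each other on chromosome 16, with log2 fold changes of -0.18, -0.69, -1.60 and -1.18. Beyond this cluster, *Olig1* before *Ifnar2* changed by 0.24 and *Tmem50b* after *Ifngr2* by 0.73 (adjusted p = 0.0525 from limma). *Il22ra1* on chromosome 4 lies beside *Ifnlr1*, the interferon lambda receptor chain, which was not in the list of 36. *Ifnlr1* lay at 5.42 and 5.02 in SOX7::GFP high cells, against 7.00 and 6.49 in SOX7::GFP low cells (-1.52, adjusted p = 0.0310 from limma).

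**Figure D2:**
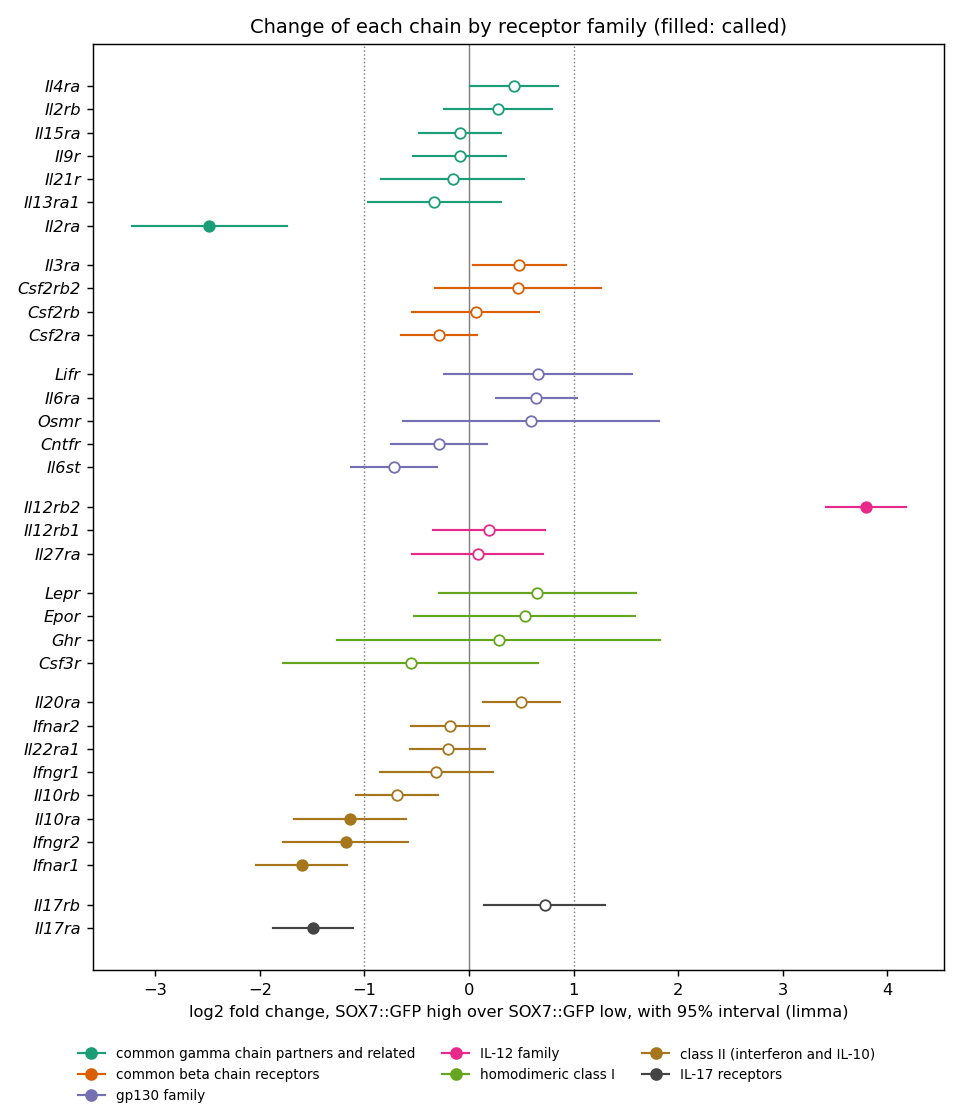
Log2 fold change of each measured chain (x axis, SOX7::GFP high over SOX7::GFP low) with its 95% interval from limma, grouped and coloured by receptor family, with filled points for called chains and dotted lines at 2-fold. Of 8 class II chains 7 lie left of zero, *Il12rb2* (3.80) stands right of all others, and the widest intervals are those of *Ghr*, *Csf3r* and *Osmr*.

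Among partners of the common gamma chain and related chains, *Il2ra* fell and 6 others did not pass. *Il2ra*, which raises the affinity of the receptor for IL-2 and marks stages of early lymphoid development, lay at 4.65 and 4.27 in SOX7::GFP high cells, against 7.28 and 6.60 in SOX7::GFP low cells. This gave a log2 fold change of -2.48 (SE 0.28, adjusted p = 0.0129 from limma). The SOX7::GFP high mean of 4.46 was under the filter value, and against that value the fall was 3.74-fold. This is no strict lower limit, as 2 of its probe sets had a SOX7::GFP high mean at or above the filter value. Of all its 13 probe sets, before the filter, 12 had a change below zero and 1 above it (-3.39 to 0.20). Of the 10 kept, 6 were called, and 8 were kept through the SOX7::GFP low arrays alone, so the filter bears on the signs of those kept. It kept its call when either SOX7::GFP low array was left out (-2.14 without replicate 1, -2.82 without replicate 2), and lost it without SOX7::GFP high replicate 1 (-2.67, adjusted p = 0.0669) and replicate 2 (-2.29, adjusted p = 0.0850, both from limma).

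The other chains of the IL-2 receptor were not called. *Il2rb*, shared by IL-2 and IL-15, changed by 0.28 (95% interval -0.24 to 0.79, adjusted p = 0.481 from limma) over 8 kept probe sets of 30. *Il2rg*, the common gamma chain itself and no member of the 36, lay at 10.47 and 10.41 in SOX7::GFP high cells, against 10.17 and 10.33 in SOX7::GFP low cells (0.19, adjusted p = 0.497 from limma). *Il15ra*, the next gene to *Il2ra* on chromosome 2, changed by -0.09 (95% interval -0.48 to 0.31, adjusted p = 0.793 from limma). *Rbm17*, on the other side of *Il2ra*, changed by 0.02.

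*Il4ra*, a chain of the IL-4 and IL-13 receptors, was at 7.23 and 7.21 in SOX7::GFP high cells, against 6.93 and 6.64 in SOX7::GFP low cells (0.43, adjusted p = 0.199 from limma). Of its 27 probe sets 23 were above zero, and none of the 22 kept was called. Its chromosomal neighbour *Il21r* (IL-21 receptor) changed by -0.16, *Il9r* (IL-9 receptor) by -0.09 and *Il13ra1*, which pairs with *Il4ra*, by -0.33 (adjusted p = 0.783, 0.810 and 0.496 from limma). Groups overlapped for these 3 chains.

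*Il17ra* fell in the IL-17 receptor family. It lay at 7.51 and 7.32 in SOX7::GFP high cells, against 8.88 and 8.93 in SOX7::GFP low cells, with a log2 fold change of -1.49 (SE 0.15, adjusted p = 0.00973 from limma). All 17 probe sets had a change below zero (-2.13 to -0.21) and 10 were called. The call held only without SOX7::GFP low replicate 1 (-1.52, adjusted p = 0.0462), and the adjusted p was 0.0569 and 0.0677 without SOX7::GFP high replicates 1 and 2 and 0.0518 without SOX7::GFP low replicate 2, all from limma. *Il17rb*, which joins *Il17ra* in the receptor for IL-25, lay at 6.34 and 5.83 in SOX7::GFP high cells, against 5.47 and 5.26 in SOX7::GFP low cells. It ran the other way without overlap, but its change of 0.72 (95% interval 0.15 to 1.30, adjusted p = 0.135 from limma) did not pass. The intervals of these partners do not overlap, although the difference itself was not tested. All 17 *Il17rb* probe sets, of which 8 were kept, were above zero, from 0.03 to 2.07.

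**Figure D3:**
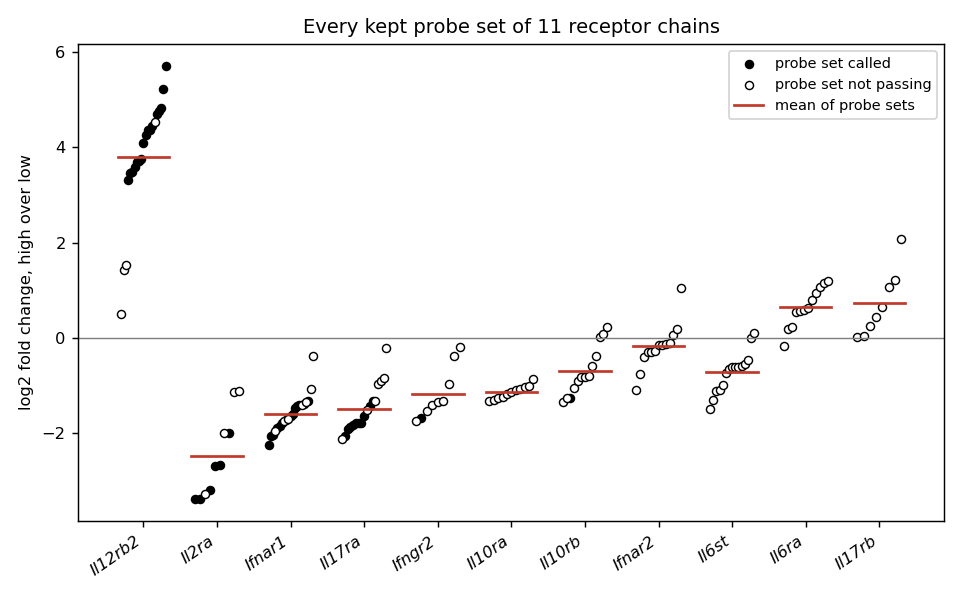
Log2 fold change (y axis, SOX7::GFP high over SOX7::GFP low) of every kept probe set of 11 chains, filled where the probe set was called, with red bars for the mean of a gene's probe sets. All kept probe sets of *Il12rb2* lie above zero and all those kept of *Il2ra*, *Ifnar1*, *Il17ra*, *Ifngr2* and *Il10ra* below it, whereas those of *Ifnar2* run from -1.09 to 1.05.

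Across the 35 chains with a singly named probe set, 360 of 586 probe sets were kept. Of these 17 were higher (4.72%, against 2.25% of 191615 probe sets) and 32 lower (8.89% against 1.77%). The 49 called probe sets came from 6 chains, *Il12rb2*, *Il2ra*, *Ifnar1*, *Il17ra*, *Ifngr2* and *Il10rb*. Probe sets of 1 gene read the same RNA and are not replicates.

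In the gp130 family none of 5 measured chains was called. *Il6ra*, the IL-6 binding chain, lay at 6.73 and 6.69 in SOX7::GFP high cells, against 6.17 and 5.96 in SOX7::GFP low cells (0.64, 95% interval 0.26 to 1.03, adjusted p = 0.0716 from limma). *Il6st*, which encodes gp130, lay at 6.16 and 5.98 in SOX7::GFP high cells, against 6.89 and 6.68 in SOX7::GFP low cells (-0.72, 95% interval -1.13 to -0.30, adjusted p = 0.0646 from limma). The binding chain and the shared signalling chain of the IL-6 receptor thus had changes of opposite sign, each without overlap of its groups, and neither passed. Of 14 *Il6ra* probe sets before the filter 12 were above zero, and of 19 *Il6st* probe sets 17 were below it.

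*Lifr*, the LIF receptor chain, changed by 0.66 (adjusted p = 0.339 from limma), with SOX7::GFP high arrays at 5.75 and 6.68 and SOX7::GFP low arrays at 5.39 and 5.72. *Osmr*, the oncostatin M receptor chain and neighbour of *Lifr* on chromosome 15, changed by 0.59 (adjusted p = 0.525 from limma) over only 3 kept probe sets of 27. *Cntfr*, the CNTF-binding chain, changed by -0.28 (95% interval -0.74 to 0.17, adjusted p = 0.412 from limma). *Il11ra1*, the IL-11 binding chain, had 4 probe sets of its own, none of them kept. Their unfiltered means were 3.17 and 3.12 in SOX7::GFP high cells, against 2.91 and 3.65 in SOX7::GFP low cells. Another 43 probe sets that the platform names for *Il11ra1* together with other genes were left out. The level of *Il11ra1* on those 43 was not tested. *Il23r* was the chain closest below the filter, with a highest second-highest value of 5.01 among its probe sets, and *Il22ra1* the closest above it (5.85).

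The common beta chain receptors were not called in any of 4 genes. *Il3ra*, the IL-3 binding chain, lay at 7.84 and 8.15 in SOX7::GFP high cells, against 7.56 and 7.47 in SOX7::GFP low cells (0.48, 95% interval 0.04 to 0.92, adjusted p = 0.178 from limma). All 11 of its probe sets were above zero, from 0.16 to 0.73. *Csf2ra*, the GM-CSF binding chain, changed by -0.29 (95% interval -0.65 to 0.07, adjusted p = 0.300 from limma).

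*Csf2rb*, the common beta chain, and *Csf2rb2*, the IL-3-specific beta chain of the mouse, are near-identical neighbours on chromosome 15, and 14 probe sets of each that the platform names for several genes were left out. *Csf2rb* lay at 8.80 and 8.22 in SOX7::GFP high cells, against 8.51 and 8.39 in SOX7::GFP low cells (0.06, 95% interval -0.55 to 0.67, adjusted p = 0.907 from limma). *Csf2rb2* lay at 7.79 and 6.95 in SOX7::GFP high cells, against 6.95 and 6.86 in SOX7::GFP low cells (0.46, 95% interval -0.33 to 1.26, adjusted p = 0.441 from limma). In both genes SOX7::GFP high replicate 1 was the highest of the 4 arrays, and the groups overlapped. Probe sets of copies this alike may read both genes, so the values of each are uncertain.

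The homodimeric class I receptors were not called either, and groups overlapped in all 4 measured. *Csf3r*, the G-CSF receptor of neutrophils, was at 6.69 and 5.31 in SOX7::GFP high cells, against 6.59 and 6.53 in SOX7::GFP low cells (-0.56, adjusted p = 0.548 from limma). SOX7::GFP high replicate 2 stood apart for *Csf3r*, and without it the change was 0.13. The myeloid integrin gene *Itgam* had 7.25 and 5.79 in SOX7::GFP high cells, against 7.80 and 7.95 in SOX7::GFP low cells, with the lowest value on that array too. *Ghr*, the growth hormone receptor, was at 6.47 and 6.20 in SOX7::GFP high cells, against 6.93 and 5.17 in SOX7::GFP low cells, with the widest interval of all chains (0.28, 95% interval -1.26 to 1.83, adjusted p = 0.828 from limma). *Epor*, the erythropoietin receptor, changed by 0.53 (adjusted p = 0.506 from limma) and *Lepr*, the leptin receptor, by 0.65 (adjusted p = 0.363 from limma), the last from 1 kept probe set of 33. *Prlr*, the prolactin receptor, had no probe set named for it alone and was not measured.

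Over the 33 chains, both SOX7::GFP high arrays lay above both SOX7::GFP low arrays in 8 (24.2%, against 32.2% of all genes) and below them in 11 (33.3%, against 22.2%), 19 in either direction where 54.4% of all genes did so. The other 14 overlapped. Without a fold minimum the chains past an adjusted p of 0.05 were still 1 higher and 5 lower, where 4.71% of all genes were higher and 3.95% lower. Before adjustment, 6 chains were higher (18.2%, against 14.1% of all genes) and 7 lower (21.2%, against 9.80% of all genes) with limma p-values under 0.05.

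Genes of other cell types moved with the groups. All 10 B-lineage markers were lower in SOX7::GFP high cells, with a summed level of 9.23 and 10.66 in SOX7::GFP high cells, against 14.39 and 14.24 in SOX7::GFP low cells (log2 of the summed signal), alongside the falls of *Il2ra*, *Ifnar1*, *Ifngr2*, *Il10ra* and *Il17ra*. Of 9 granulocyte and macrophage markers 4 were lower, with summed levels of 12.40 and 11.82 in SOX7::GFP high cells, against 13.05 and 13.19 in SOX7::GFP low cells. Of 4 eosinophil markers 2 were lower, with 7.61 and 7.29 in SOX7::GFP high cells, against 10.16 and 9.71 in SOX7::GFP low cells. In these lists of B, myeloid and eosinophil genes the sums of the groups did not overlap. The same held for the mast cell and basophil and the megakaryocyte lists given next. Over all genes tested, 3.24% were called lower and 3.61% higher, and groups did not overlap in 54.4%. Beside the rise of *Il12rb2*, 3 of 7 mast cell and basophil markers were higher, and their sum was 12.74 and 12.03 in SOX7::GFP high cells against 10.31 and 9.93 in SOX7::GFP low cells. Of 5 megakaryocyte markers 4 were higher, with 10.07 and 10.62 in SOX7::GFP high cells against 7.99 and 8.52 in SOX7::GFP low cells. The T, NK and innate lymphoid list, cell types known for *Il12rb2*, summed to 10.32 and 10.15 in SOX7::GFP high cells, against 10.22 and 10.18 in SOX7::GFP low cells. Of its 10 measured markers *Gata3* was higher (1.85, adjusted p = 0.0276) and *Klrb1c* was lower (-1.33, adjusted p = 0.0108, both from limma). The T-cell gene *Cd3e* changed by 0.07. The brightest of the list, *Cd4*, *Nkg7* and *Tbx21*, weigh most in its sum and were not called. *Cd4* rests on 1 kept probe set of 14 and *Tbx21* on 4 of 12, whereas *Nkg7* kept 8 of 8. *Klrb1c* rests on 2 of 9. The sum of this list is thus a weak guide to these cell types. None of 9 stroma markers was called, and their sum of 11.08 and 10.30 in SOX7::GFP high cells, against 10.64 and 9.88 in SOX7::GFP low cells, stands beside *Lifr*, *Osmr*, *Ghr* and *Lepr*. Neither was any of 5 dendritic markers (12.24 and 12.53 in SOX7::GFP high cells, against 12.43 and 12.52 in SOX7::GFP low cells). *Bst2*, by far the brightest of these, weighs most in that sum. *Itgax* changed by 2.12 and *Siglech* by 0.97 without overlap (adjusted p = 0.0691 and 0.0697 from limma). Both had SOX7::GFP low means under the filter value. The other 3 changed below zero. The 3 erythroid markers, none of them called, summed to 10.43 and 10.88 in SOX7::GFP high cells, against 8.21 and 11.25 in SOX7::GFP low cells, beside *Epor*. No measured marker was under the filter value on all arrays, which the filter on probe sets largely ensures. Listed markers without a kept probe set were not counted. The part of other cell types in the changes of the receptor chains was not tested.

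Over 5 lists of pathway genes 12 of 77 measured genes were called (15.6%, against 6.85% of all genes), with between 1 and 4 calls in a list. These lists too were chosen with earlier results of these data known. The share called in each is therefore a description and no test. Of 10 measured Janus kinases and STATs (10.0% called, against 6.85%), *Stat2*, which with *Ifnar1* and *Ifnar2* belongs to type I interferon signalling, was the only one lower and none was higher. It lay at 7.45 and 7.59 in SOX7::GFP high cells, against 8.41 and 8.83 in SOX7::GFP low cells (-1.10, adjusted p = 0.0386 from limma). *Stat3*, used by gp130 receptors, was at 8.52 and 8.41 in SOX7::GFP high cells, against 7.62 and 7.67 in SOX7::GFP low cells, an adjusted p of 0.0340 from limma with a change of 0.82, under 2-fold. *Stat4*, through which IL-12 signals, changed by 0.38 (adjusted p = 0.208 from limma). The median of the list was 0.24, against 0.05 over all genes.

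Among 17 feedback regulators *Cish* was lower and none was higher (5.88% called, against 6.85% of all genes, with a median of -0.09). *Cish*, a STAT5 target that inhibits cytokine receptors, lay at 5.74 and 5.81 in SOX7::GFP high cells, against 8.81 and 8.68 in SOX7::GFP low cells. Its log2 fold change was -2.97 (SE 0.14, adjusted p = 0.00353 from limma). *Socs2*, a STAT5 target as well, changed by -1.05 (adjusted p = 0.0791 from limma) and *Sh2b3*, an adaptor that restrains JAK2, by -0.82 (adjusted p = 0.0543 from limma), and neither passed. *Socs6* passed the p threshold with a change under 2-fold (0.83, adjusted p = 0.0441 from limma). *Stat5a* and *Stat5b* changed by 0.57 and 0.37, without a call.

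Of 10 STAT target genes 3 were lower and 1 was higher (40.0% called, against 6.85% of all genes, with a median of -0.66). The survival gene *Bcl2l1* (-1.61, adjusted p = 0.00665), the cell cycle inhibitor *Cdkn1a* (-1.23, adjusted p = 0.0296) and the repressor *Bcl6* (-1.14, adjusted p = 0.0149) were lower, and the kinase gene *Pim2* (1.37, adjusted p = 0.0245) was higher, all from limma. *Irf1*, a target of interferon signalling, lay at 6.48 and 6.59 in SOX7::GFP high cells, against 7.55 and 7.45 in SOX7::GFP low cells. The proliferation gene *Myc* lay at 9.58 and 9.69 in SOX7::GFP high cells, against 10.55 and 10.42 in SOX7::GFP low cells. Both passed the p threshold with changes under 2-fold (-0.96, adjusted p = 0.0235, and -0.85, adjusted p = 0.0343, from limma). Many signals besides cytokines act on these genes.

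Of 29 ligands measured, 1 was higher and 2 were lower (10.3% called, against 6.85% of all genes, with a median of 0.05). *Il6* lay at 6.95 and 6.26 in SOX7::GFP high cells, against 4.25 and 3.49 in SOX7::GFP low cells. Its change was 2.74 (adjusted p = 0.0181 from limma). SOX7::GFP low arrays averaged under the filter value, and against that value its rise was 2.96-fold. *Il12a*, a subunit of IL-12, lay at 5.86 and 5.18 in SOX7::GFP high cells, against 7.36 and 7.60 in SOX7::GFP low cells (-1.96, adjusted p = 0.0201 from limma), and *Il12b*, the other subunit, changed by -0.10. *Lif* was at 5.11 and 5.29 in SOX7::GFP high cells, against 6.51 and 6.64 in SOX7::GFP low cells (-1.38, adjusted p = 0.0117 from limma). In the IL-12 system the receptor chain *Il12rb2* and the ligand subunit *Il12a* were called in opposite directions.

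Of 11 further receptor chains outside the list of 36, 3 were lower and none was higher (27.3% called, against 6.85% of all genes, with a median of -0.12). *Il7r*, the binding chain for the IL-7 given in the medium, lay at 7.51 and 6.69 in SOX7::GFP high cells, against 10.50 and 10.08 in SOX7::GFP low cells (-3.19, adjusted p = 0.0104 from limma). *Il5ra*, the IL-5 binding chain of eosinophils and some B cells, lay at 5.04 and 5.02 in SOX7::GFP high cells. In SOX7::GFP low cells it lay at 6.95 and 6.15 (-1.52, adjusted p = 0.0460 from limma). Its SOX7::GFP high mean was under the filter value, and against that value its fall was 2.85-fold. *Il7r*, *Il5ra* and *Ifnlr1* were the called chains. The remaining 8, *Il31ra*, *Il2rg*, *Il17rd*, *Il17rc*, *Crlf2*, *Crlf3*, *Il20rb* and *Il17re*, changed by 0.26 to -0.27. The 12 calls over the 5 pathway lists became 4 and 2 without SOX7::GFP high replicates 1 and 2, and 6 and 5 without SOX7::GFP low replicates 1 and 2.

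**Figure D4:**
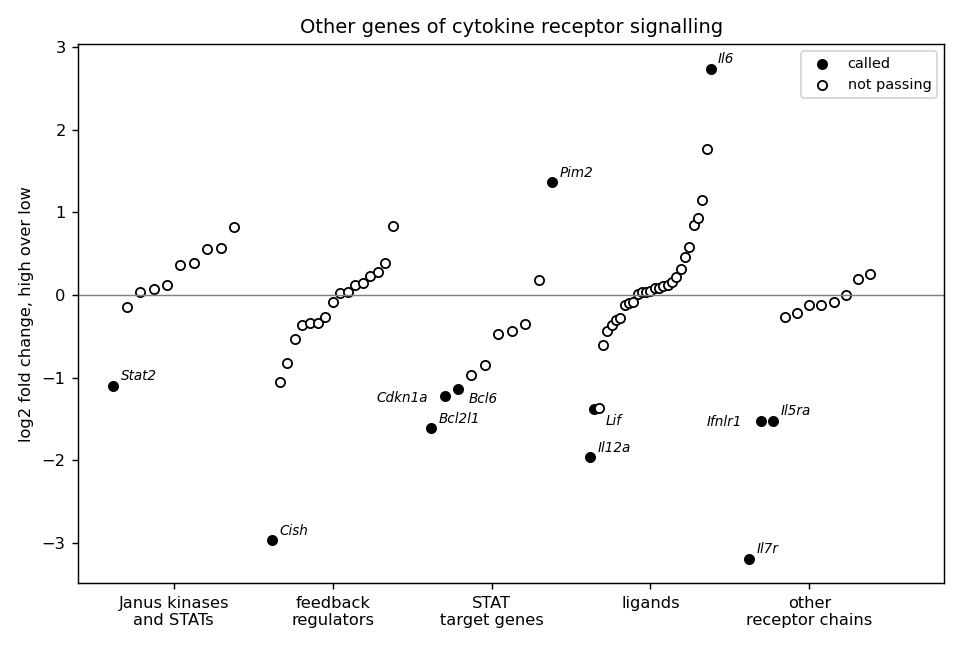
Log2 fold change (y axis, SOX7::GFP high over SOX7::GFP low) of each measured gene in 5 lists of cytokine receptor signalling, with filled points and names for called genes and open points for the others. *Il7r* (-3.19) and *Cish* (-2.97) are lowest and *Il6* (2.74) is highest, and most other points lie within 1 of zero.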

How the data were processed

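RNA of sorted iSox7 bone marrow cells was labelled and hybridized to Affymetrix mouse exon arrays, 2 per group. The table that the authors deposited holds 1236087 probe sets, unfiltered, as log2 signal from RMA (robust multi-array averaging, per the submitters' processing notes; its version is not given in the sources used here). Values ran from 0.549 to 14.4 with array medians of 3.90 to 3.91. Averaging of this kind sets all arrays to 1 distribution, so a shift of all genes cannot be seen.

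The platform's annotation gave the gene names: 321091 had 1 symbol, 7796 several and 907200 none, and only the first were used. Of 22378 symbols, 18054 matched the GRCm38.p6 gene table directly and 4258 through a synonym. Probe sets with a second-highest value of 5.04 or more were kept (191615), their log2 values averaged per gene, and 18763 genes were fitted with limma 3.58.1 in R 4.3.3 (lmFit and eBayes, SOX7::GFP high minus SOX7::GFP low) with Benjamini-Hochberg adjustment over all genes. Genes were called at 2-fold or more with adjusted p under 0.05. Keeping as many probe sets as the study kept would, with this annotation, set the filter at 5.08, which was run as an alternative added after seeing the data. A fold against the filter value is the brighter gene mean over that value. Single probe sets were not floored, so it is no strict lower limit. The test was checked on simulated data.

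All members are named, those called with every array, other measured members with their change and adjusted p, and of the pathway lists the called genes, up to 4 in each direction; a few further genes were named after their values were seen. The members and lists were chosen with earlier results of these data known. Alternatives were no filter, a stricter filter of 6, the median of probe sets, at least 3 probe sets, a test per probe set, centring on reference genes, quantile normalization, a t-test as in the methods, a trend and robust fit, no fold minimum, a replicate block and each array left out in turn. The detection scores used by the study as a filter were not used here.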

Additional observations from a re-analysis of the deposited data

How the results depend on the processing

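*Il12rb2* was called higher in every alternative but the methods' t-test, which called 0 chains higher and 0 lower after adjustment, 0 genes of the pathway lists and 0 genes in all. At an unadjusted p under 0.05 the methods' t-test had 3 chains higher (9.09%, against 11.4% of all genes) and 6 lower (18.2%, against 7.27%), and limma had 6 higher and 7 lower. The 5 chains called lower became 3 with the median of probe sets, 3 with a test per probe set (*Il2ra*, *Ifnar1* and *Il17ra*) and 4 with centring on reference genes, and 5 in the other alternatives except with an array left out. With an array left out, 1 chain was always called higher, 0 to 2 chains lower, 2 to 6 genes of the pathway lists (12 with all arrays) and 0 to 20 probe sets of members. A lone array was then assumed to vary like the other group, and all genes called were 311 and 400 without SOX7::GFP high replicates 1 and 2 and 717 and 644 without SOX7::GFP low replicates 1 and 2, against 1286. The 49 called probe sets of members became 82 with a trend and robust fit.

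Replicate numbers are shared by the groups, but only 2 pairs exist and no label gives them a meaning. Deviations of same-numbered arrays correlated at 0.104. With the replicate block the called probe sets of members were 27, the chains called stayed at 1 higher and 5 lower, genes of the pathway lists were 13 and all genes 1346.

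Some small changes, none of them called, turned their sign. Without a filter *Cntfr* changed by 0.19 and *Il27ra* by -0.015, and with the median of probe sets *Il15ra* changed by 0.16, *Il21r* by 0.016, *Il22ra1* by 0.037, *Il27ra* by -0.33 and *Il9r* by 0.035. With an array left out the changes spanned -0.23 to 0.35 for *Csf2rb*, -1.25 to 0.13 for *Csf3r*, -0.60 to 1.16 for *Ghr*, -0.023 to 0.41 for *Il12rb1*, -0.19 to 0.023 for *Il15ra*, -0.51 to 0.19 for *Il21r*, -0.19 to 0.36 for *Il27ra*, -0.25 to 0.073 for *Il9r* and -0.089 to 1.27 for *Osmr*. The causes were not tested. The mean of 1 group of *Il12rb2* and of *Il2ra* was under the filter value, so signal over background limits the size of these changes.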
